A study of Mus musculus with 9 samples.

Results

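The genes described here are the olfactory receptor genes, with symbols that begin with Olfr and a number, and the vomeronasal receptor genes, with symbols that begin with Vmn1r or Vmn2r and a number. They were found by their Ensembl identifiers in a pair of tables of expression in the mouse amygdala. Of 1738 such genes in the annotation, 199 were listed in at least 1 table, among 12275 genes in all. The table of BA and AV mice listed 124 of them (77 olfactory, 23 Vmn1r and 24 Vmn2r genes) and the table of BA and AP mice listed 182 (112 olfactory, 33 Vmn1r and 37 Vmn2r genes). Both tables held 107 genes, and 17 and 75 were listed only in the first and only in the second.

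Olfactory receptors are G protein-coupled receptors that detect odorants in the sensory neurons of the nasal epithelium, where each mature neuron expresses a single receptor gene. Vomeronasal receptors of the V1R and V2R families work in the vomeronasal organ and detect pheromones and other social cues, and V2R proteins carry a large extracellular domain that V1R proteins lack. The genes lie in tight genomic clusters of near copies, and low levels of olfactory receptor transcripts have long been known from many tissues outside the nose, brain included.

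The mice carried the Thy1-YFP transgene (B6.Cg-Tg(Thy1-YFP)HJrs/J), in which the Thy1 promoter drives the fluorescent protein YFP in subsets of neurons. They had been classed by their behaviour in a test of conflict between approach and avoidance into balancing (BA), avoiding (AV) and approaching (AP) mice, 3 of each, and amygdala tissue was taken a month later. YFP-positive cells were sorted from single mice, and the RNA of each mouse gave 1 library. The authors left 1 AV mouse out as an outlier, AV replicate 2, so AV replicates 1 and 3 were set against 3 BA mice, and 3 AP mice against the same BA mice in the other table. Values are in units of normalized signal and the tables were normalized separately. In the table of AP mice most low values, 79.1% to 88.1% per mouse, fall on multiples of what 1 read is worth, from which between 3814981 and 6722627 reads per mouse could be read back, and the level of 3 reads lies between 4.12 and 5.68. The depth behind the table of AV mice is unknown, and 5.68 was used as the level of 3 reads there. This level is an assumption, since values there also lie under 2, the lowest value in the table of AP mice. An example is Olfr394, with 1.84 in AV replicate 3.

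The sorted cells were checked against markers before the receptor genes were read. Of 10 markers of pyramidal neurons, 2 were listed in either table, Camk2a and Nrgn, while Slc17a7, Snap25, Rbfox3 and Thy1 itself were not. The summed level of these 2 markers was between 67.1 and 93.0 in the BA mice and 1785 and 3096 in the AV mice, and in the other table between 79.7 and 119 in the BA mice and 82.5, 955 and 1798 in AP replicates 1 to 3. All 7 oligodendrocyte markers were listed, with sums between 191674 and 235646 in the BA mice. Of 15 markers of olfactory sensory neurons, 5 were listed in the table of AV mice, Omp, Gnal, Adcy3, Nqo1 and Faim2. All of these but Adcy3 were also listed in the table of AP mice. Cnga2, Cnga4, Gng13, Ano2, Stoml3, Rtp1 and Rtp2 were among those listed in neither table. The libraries of the BA mice thus held little of the RNA that marks pyramidal neurons and much that marks oligodendrocytes.

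Olfactory receptors share a conserved stretch at the inner end of the third transmembrane segment around the Asp-Arg-Tyr motif of this receptor class. The coding bases of this stretch are shown for some of the olfactory receptor genes with the highest levels in all mice. Others shown are among the genes with the smallest p values described below. The 30 bases were read from the GENCODE M21 transcripts of GRCm38, with the codons of the motif or its close variant in capitals.
Olfr639: atgagttatGACCGCTTTgtagccatctat
Olfr1385: atggcttttGACCGCTATgctgctgtgtgt
Olfr1307: atggcctttGACAGATATgtggccatatgt
Olfr735: atggcctatGATAGGTATgttgccatatgc
Olfr1191-ps1: atggcctatGATAGATATgtggccatttgt
Olfr1385 carries the stretch at coding bases 352 to 381 and Olfr735 at coding bases 379 to 408. In frame, the motif was found in this form in 112 of the 123 listed olfactory receptor genes, and in 965 of the 1284 that were not listed. Only annotated coding sequences that start with ATG were searched, so genes without one, such as noncoding pseudogenes, count as not holding it. None of the vomeronasal receptor genes held it.

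RefSeq promoter windows of GRCm38.p6 are shown for a pair of genes from the largest genomic run. They run from 250 bases before to 50 bases after the RefSeq start. The first belongs to Olfr1220 (chr2:89097914-89098213, minus strand) and the second to Olfr1120 (chr2:87357196-87357495, plus strand), and both genes were lower in AV mice. Capitals mark TAATTA, a core that homeodomain proteins bind, which was searched on both strands and reads the same on both. It is in the window of Olfr1220 and not in that of Olfr1120.
Olfr1220: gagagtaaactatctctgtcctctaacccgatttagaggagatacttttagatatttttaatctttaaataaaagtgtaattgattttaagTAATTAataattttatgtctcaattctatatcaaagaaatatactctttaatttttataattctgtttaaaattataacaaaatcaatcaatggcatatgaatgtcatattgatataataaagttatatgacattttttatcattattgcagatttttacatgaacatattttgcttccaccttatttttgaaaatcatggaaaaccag
Olfr1120: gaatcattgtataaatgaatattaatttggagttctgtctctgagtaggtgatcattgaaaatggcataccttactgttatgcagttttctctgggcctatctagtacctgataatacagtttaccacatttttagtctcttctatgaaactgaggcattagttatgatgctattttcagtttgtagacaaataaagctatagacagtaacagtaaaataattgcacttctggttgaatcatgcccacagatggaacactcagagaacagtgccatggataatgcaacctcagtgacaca
Both windows lie inside the GENCODE gene, which begins upstream of the RefSeq start. Whether they hold the promoter of the GENCODE transcript was not tested. TAATTA was in 16.2% of the 111 promoter windows of listed genes in the table of AV mice, in 18.6% of those of all annotated olfactory receptor genes, in 10.9% of those of all annotated vomeronasal receptor genes and in 5.29% of all 32851 windows. By class, TAATTA was in 14.9% of the listed olfactory and 18.2% of the listed vomeronasal windows. The core holds only A and T, and these shares are not adjusted for the base composition of the windows. An Ebf motif was searched in the same windows and was in 0% of those of listed genes. It was in 0.527% of annotated olfactory, 0% of annotated vomeronasal and 0.904% of all windows.

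In comparison to BA mice, the receptor genes were lower in AV mice as a group. Of 124 listed genes, 85 fell and 1 rose at a Benjamini-Hochberg adjusted p under 0.05 in limma, where 29.7% of all 9872 genes passed in either direction, 16.2% lower and 13.6% higher. The median log2 fold change was -1.63, a 3.09-fold lower value, against -0.03 over all genes, and 115 of the 124 lay under 0, against 51.5% of all genes. In 98 genes each AV mouse was lower than each BA mouse, which held for 31.3% of all genes, and in 1 gene, Vmn2r66, both lay over them, which held for 27.7%. These values are differences on the scale of log2(value + 1), and in bulk libraries fewer cells of a type and less RNA per cell cannot be told apart.

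The classes moved alike. Among olfactory receptor genes, 55 of 77 fell and none rose, with a median of -1.66. Of the Vmn1r genes, 14 of 23 fell and none rose, with a median of -1.59. Of the Vmn2r genes, 16 of 24 fell and 1 rose, with a median of -1.57. The middle 50% of the olfactory genes lay between -2.19 and -1.03, and that of all genes between -0.61 and 0.55. Receptor genes with a BA mean of at least 100 fell in 42 of 52 cases with a median of -1.67. Those under that level fell in 43 of 72 with a median of -1.49. Of all genes in the table, 19.1% with a BA mean of at least 100 fell, with a median of -0.16. Under that level 11.8% of all genes fell, with a median of 0.25. The BA mean is itself 1 side of the comparison. In 8 genes neither AV mouse exceeded the level of 3 reads, and the median was -1.63 also with these at their bound.

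**Figure D1:**
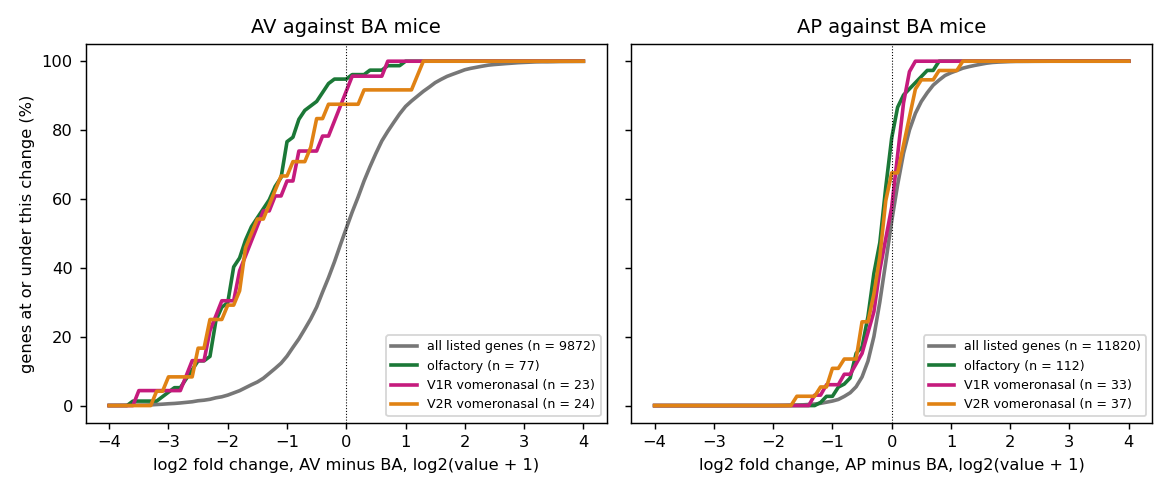
Cumulative share of genes (y axis, percent) at or under a log2 fold change (x axis) for AV against BA mice on the left and AP against BA mice on the right, with 1 line for all listed genes and 1 for each receptor class. On the left the 3 receptor classes run together to the left of all genes, with medians between -1.66 and -1.57, and on the right they lie close to all genes.

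Each mouse was then read on its own, as the median over the receptor genes of the difference from the BA mean. In the table of AV mice it was 0.06, -0.22 and 0.17 in BA replicates 1, 2 and 3, and -1.59 and -1.60 in AV replicates 1 and 3. Both AV mice lay far below the BA mice, and the BA mice differed among themselves by much less. As a share of all signal in the mouse, the receptor genes took 0.811%, 0.597% and 0.922% in the BA mice and 0.406% and 0.291% in the AV mice. The median difference over all genes was between -0.08 and 0.02 in every mouse of this table.

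**Figure D2:**
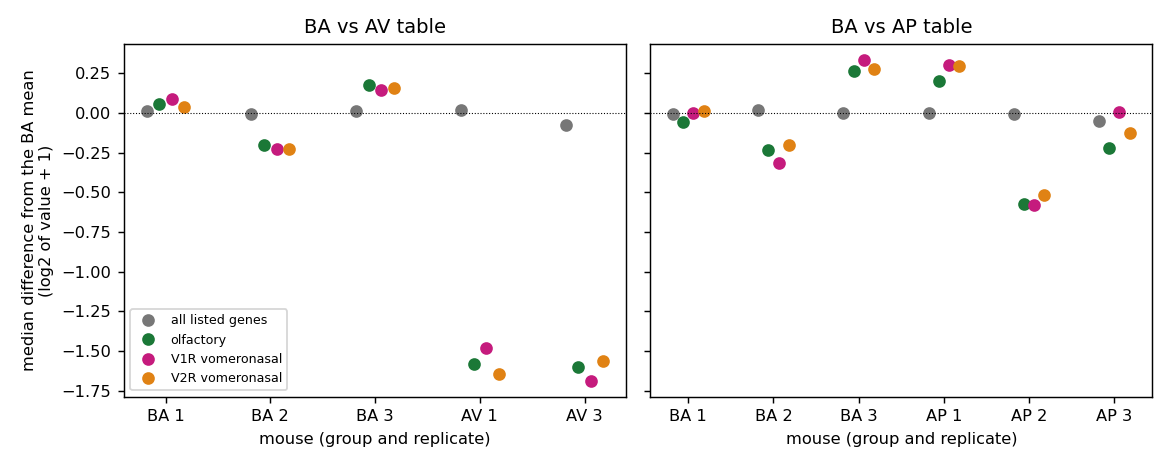
Median difference from the mean of the BA mice (y axis, log2 of value + 1) for each mouse (x axis), by receptor class and for all listed genes, in the table of AV mice on the left and of AP mice on the right. Both AV mice sit between -1.69 and -1.48 in all 3 classes, while AP replicate 2 sits between -0.58 and -0.52 and AP replicate 1 between 0.20 and 0.30.

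The AV mice were alike in the median but not gene by gene. AV replicate 1 was higher than replicate 3 in 66 receptor genes and lower in 58, and by over 2-fold in 26 and 28. It lay over every BA mouse in 14 genes, and AV replicate 3 in 2. The SD between mice on the log2 scale had a median of 0.572 in the AV mice for receptor genes and 0.267 for all genes, and in the BA mice 0.281 and 0.235. In AV replicate 1, 33 of the 124 genes did not exceed the level of 3 reads. The same held for 12 genes in AV replicate 3, and for 0, 1 and 0 in BA replicates 1, 2 and 3.

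The receptor gene with the highest value in every BA mouse and in AV replicate 3 was Vmn2r53, a V2R receptor gene (ENSMUSG00000096002, chr7:12562851-12608788), while in AV replicate 1 Olfr46 was higher. The signal of Vmn2r53 was 5419, 4289 and 6611 in the BA mice and 1450 and 1646 in the AV mice. Every AV mouse was below every BA mouse, and the log2 fold change was -1.79 ± 0.26 (SE, n = 3 BA and 2 AV mice, adjusted p = 0.00503 in limma). Vmn2r114, another V2R gene, had 1376, 1002 and 1675 in the BA mice and 437 and 428 in the AV mice. Its log2 fold change was -1.61 ± 0.27 (SE, adjusted p = 0.00740).

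Olfr639, an olfactory receptor gene, had 1309, 1138 and 1715 in the BA mice and 567 and 449 in the AV mice. The groups did not overlap, and it fell by 1.44 on the log2 scale (SE 0.27, adjusted p = 0.00946). Olfr1385 had 1098, 766 and 1209 in the BA mice and 641 and 487 in the AV mice. It did not pass the test (log2 fold change -0.85, adjusted p = 0.0627), although its groups did not overlap either, and without AV replicate 1, when the remaining AV mouse is assumed to vary like the BA mice, it passed at 0.0366. It also passed with each mouse centred on its median (adjusted p = 0.0449) and with a variance prior that follows the mean (adjusted p = 0.0127). Olfr46 went another way, with 669, 575 and 1636 in the BA mice and 1988 and 637 in the AV mice. The groups overlapped, BA replicate 3 and AV replicate 1 were high, and the log2 fold change of 0.39 had an adjusted p of 0.655 and turned to -0.43 without AV replicate 1.

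Per 1000 bases of exon, the order of these genes in the BA mice of this table was another. Olfr774, with a short annotated transcript, led with a mean of 454, then Vmn2r53 with 246, Olfr1385 with 231, Olfr639 with 210 and Olfr986 with 207. Over all listed receptor genes the median was 11.9 per 1000 bases, against 29.6 for all listed genes. In the table of AP mice, the same BA mice had a mean of 97.0 per 1000 bases for Olfr774, under the 263 of Olfr1385 and the 165 of Vmn2r53. These genes were measured in the same mice, and whether they differ from each other within a mouse was not tested. Between the BA mice, the SD of the Vmn2r53 signal was 1161 at a mean of 5440.

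Several of the genes with the smallest p values were close to the level of 3 reads in AV mice. Olfr1120 (chr2:87354815-87361786), whose promoter window stands above, had 46.2, 41.04 and 52.1 in the BA mice and 5.996 and 5.902 in the AV mice. Both AV mice lay just over the level of 3 reads, and the log2 fold change was -2.76 ± 0.22 (SE, adjusted p = 0.00256). Vmn2r89 (chr14:51451857-51464172) had 67.6, 61.9 and 95.6 in the BA mice and 6.84 and 7.25 in the AV mice. Its log2 fold change of -3.22 ± 0.26 (SE) had an adjusted p of 0.00256 and was the lowest among the V2R genes.

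Olfr1191-ps1, annotated in name as a pseudogene, had the lowest log2 fold change of all the receptor genes, -3.67 ± 0.43 (SE, adjusted p = 0.00328). Its signal was 148, 105 and 132 in the BA mice and 5.09 and 15.5 in the AV mice, so AV replicate 1 was under the level of 3 reads. Vmn1r207-ps, a V1R gene in name a pseudogene, followed with 126, 151 and 155 in the BA mice and 4.82 and 25.9 in the AV mice, a log2 fold change of -3.53 ± 0.59 (SE, adjusted p = 0.00696). Olfr1260 had 24.2, 24.1 and 30.1 in the BA mice and 4.93 and 2.46 in the AV mice. Both AV mice were under the level of 3 reads assumed for this table. With both set at that level, the gene was 4.60-fold lower.

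Other genes with small p values fell in the same way. Vmn2r115 had 305, 249 and 341 in the BA mice and 57.3 and 41.2 in the AV mice, and Olfr735 had 329, 280 and 334 against 86.9 and 82.4. Among the genes with BA values under 100, Olfr1416 had 42.5, 33.5 and 37.6 against 6.27 and 8.08, and Vmn2r75 43.0, 47.2 and 61.1 against 6.43 and 9.69. Vmn2r24 had 50.5, 57.0 and 56.4 in the BA mice and 7.62 and 12.2 in the AV mice, and Olfr571 55.4, 47.1 and 69.8 against 9.86 and 13.1. In all 6 genes the groups were far apart, and the log2 fold changes ran from -2.58 for Vmn2r115 to -1.88 for Olfr735.

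Vmn2r66, a V2R gene, was the 1 receptor gene that rose in the fit reported here. Its signal was 73.2, 54.0 and 66.3 in the BA mice and 173 and 122 in the AV mice, a log2 fold change of 1.17 ± 0.26 (SE, adjusted p = 0.0175). The call depended on single BA mice: the adjusted p was 0.0698 without BA replicate 2 and 0.0555 without BA replicate 3. Vmn2r29 had the highest log2 fold change of the receptor genes, 1.28, with an adjusted p of 0.152. Its signal was 7.53, 13.5 and 19.7 in the BA mice and 63.0 and 16.1 in the AV mice, so AV replicate 1 stood apart, and without AV replicate 3 the adjusted p was 0.00339. With the GC trend of each mouse removed and all mice kept it was 0.0360, at a log2 fold change of 1.82. Olfr671 showed the same split, with 8.33, 5.70 and 6.33 in the BA mice and 32.3 and 5.22 in the AV mice. Its log2 fold change of 0.90 had an adjusted p of 0.323, turned to -0.31 without AV replicate 1 and passed without AV replicate 3, at 0.000695.

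**Figure D3:**
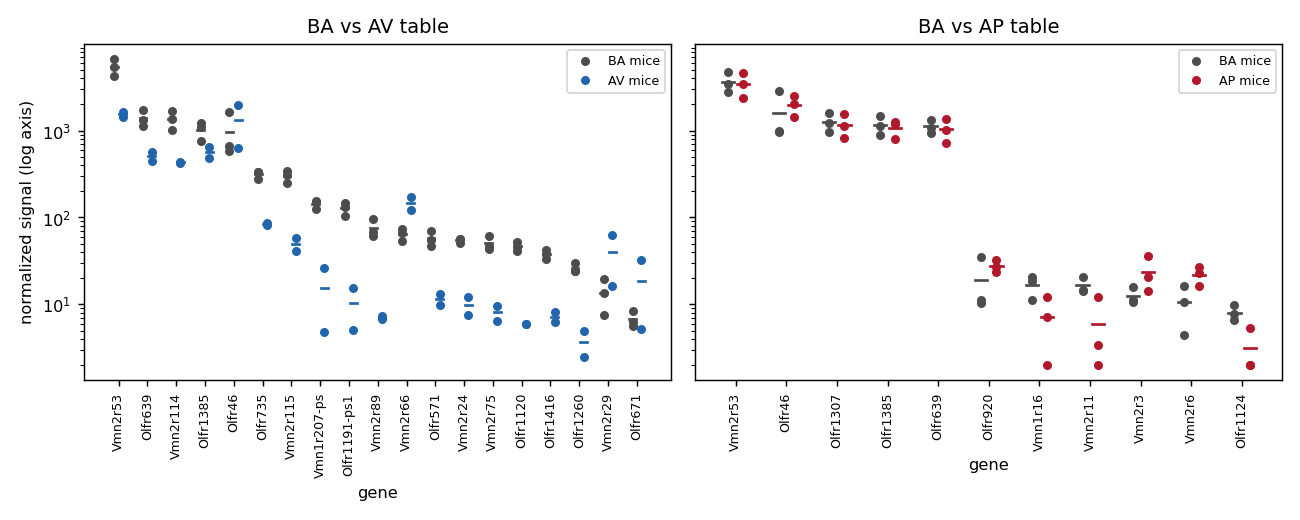
Normalized signal (y axis, log axis) of the receptor genes named by rule (x axis, ordered by their BA mean). There is 1 point for each mouse and a short line at the group mean, with the table of AV mice on the left and of AP mice on the right. Olfr374, Olfr774, Olfr986 and Olfr1220, named after their values were seen, are not shown. On the left the AV points lie under the BA points for most genes, with Vmn2r66 above them and Olfr46, Vmn2r29 and Olfr671 overlapping, and on the right the groups overlap in the genes with the highest values.

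In comparison to BA mice, no receptor gene passed the test in AP mice. Of 182 listed genes 0 were called by limma, where 0.00846% of all 11820 genes passed. At an unadjusted p under 0.05, 15 receptor genes were lower and 3 higher, where 7.77% of all genes passed, 2.77% lower and 4.99% higher. In 11 genes every AP mouse was under every BA mouse, where 6.45% of all genes were, and in 2 every AP mouse was over every BA mouse, where 5.64% were. The median log2 fold change was -0.15, against -0.03 over all genes, and 131 of 182 receptor genes lay under 0, against 53.5% of all genes. By class it was -0.17 for olfactory, -0.08 for Vmn1r and -0.15 for Vmn2r genes.

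The spread between mice in the table of AP mice was as large as these medians. The receptor genes had a median distance to the BA mean of -0.04, -0.24 and 0.28 in BA replicates 1, 2 and 3, and 0.26, -0.57 and -0.18 in AP replicates 1, 2 and 3. AP replicate 2 was the lowest of the 6 mice in 101 of 182 receptor genes, and in 17.1% of all genes. BA replicate 3 was the highest in 72 receptor genes and AP replicate 1 in 57. Without AP replicate 2 the median was 0.01 for olfactory and 0.12 for vomeronasal receptor genes. The receptor genes took 0.672%, 0.512% and 0.881% of all signal in the BA mice and 0.831%, 0.454% and 0.682% in the AP mice.

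The genes with the highest values in all AP and BA mice were mostly those of the other table. Vmn2r53 had 3437, 2788 and 4746 in the BA mice and 4645, 2345 and 3429 in the AP mice. The groups overlapped throughout, and the log2 fold change was -0.09 ± 0.32 (SE, adjusted p = 0.942). Olfr46 had 997, 971 and 2829 in the BA mice and 2025, 1448 and 2499 in the AP mice, with a log2 fold change of 0.47 ± 0.43 (SE, adjusted p = 0.785). BA replicate 3 was the highest of the 6 mice in this gene, and it was also the highest of the BA mice in the table of AV mice.

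Olfr1307 had 1213, 959 and 1609 in the BA mice and 1534, 815 and 1139 in the AP mice. Olfr1385 had 1132, 896 and 1462 in the BA mice and 1248, 810 and 1191 in the AP mice. In Olfr639 the signal was 1078, 941 and 1329 in the BA mice and 1359, 715 and 1014 in the AP mice. All 3 overlapped between groups, with log2 fold changes between -0.15 and -0.10, and AP replicate 2 was the lowest mouse in each.

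The largest differences in AP mice were in genes with few reads. Vmn2r11 had 14.8, 14.3 and 20.4 in the BA mice and 12.2, 3.42 and 2 in the AP mice, where 2 stands for no read. Its log2 fold change of -1.63 ± 0.50 (SE) had an adjusted p of 0.444. Vmn1r16 had 18.4, 11.2 and 20.6 in the BA mice and 12.2, 7.07 and 2 in the AP mice, and the groups overlapped. For Olfr1124 the values were 9.74, 6.55 and 7.80 against 5.41, 2 and 2, and the log2 fold change was -1.21 (adjusted p = 0.398).

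In the other direction, Vmn2r6 had 4.45, 10.6 and 16.5 in the BA mice and 16.2, 22.7 and 26.8 in the AP mice. Vmn2r3, which lies in the same run on chromosome 3, had 15.8, 10.6 and 11.2 against 20.5, 14.2 and 35.8. Olfr920 had 11.2, 10.2 and 35.1 against 27.1, 23.4 and 32.6. All 3 overlapped between the groups, and their log2 fold changes of 1.12, 0.78 and 0.74 had adjusted p values between 0.572 and 0.711.

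Receptor genes lie in clusters, and the listed ones were grouped into runs of 3 or more with gaps of at most 1 Mb. There were 26 such runs with 175 genes, and 24 genes lay outside them. The listed genes were spread over 17 chromosomes. In AV mice, all 16 runs with at least 3 genes in the table had a median under 0, between -1.998 and -0.898. Each held at least 1 gene that fell. The runs are drawn from the same 124 genes, of which 115 lay under 0 and 85 fell, so they are not separate evidence. In AP mice, 21 of 26 runs had a median under 0, between -0.54 and 0.25 over all of them.

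The largest run lay on chromosome 2 (chr2:87046811-90271032) with 29 olfactory receptor genes. Of its 16 genes in the table of AV mice, 15 were under 0 and 12 fell, with a median of -1.95. On chromosome 7, a run of 15 olfactory receptor genes (chr7:102597770-105037750), in the region of the class I receptors that resemble those of fish, had 8 of 11 genes that fell, with a median of -1.44. Runs of vomeronasal genes did the same. In the run of 12 V1R and V2R genes on chromosome 17 (chr17:17703747-21294007), 5 of 7 fell with a median of -1.74, and in the run of 11 V1R genes on chromosome 13 (chr13:22324589-23187975) 4 of 7 fell with a median of -1.65. Fewer fell in the run of 10 olfactory genes on chromosome 9 (chr9:38115198-40190134), 2 of 6 with a median of -0.95, and in the run of 6 V1R genes on chromosome 6 (chr6:56997243-58015159), 2 of 5 with a median of -0.90. A run of 9 olfactory genes on chromosome 10 (chr10:129074825-129710018) had 6 of 6 genes that fell. The run on chromosome 7 that holds Vmn2r66 (chr7:84985366-87044941) had 2 that fell and 1 that rose among 4.

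**Figure D4:**
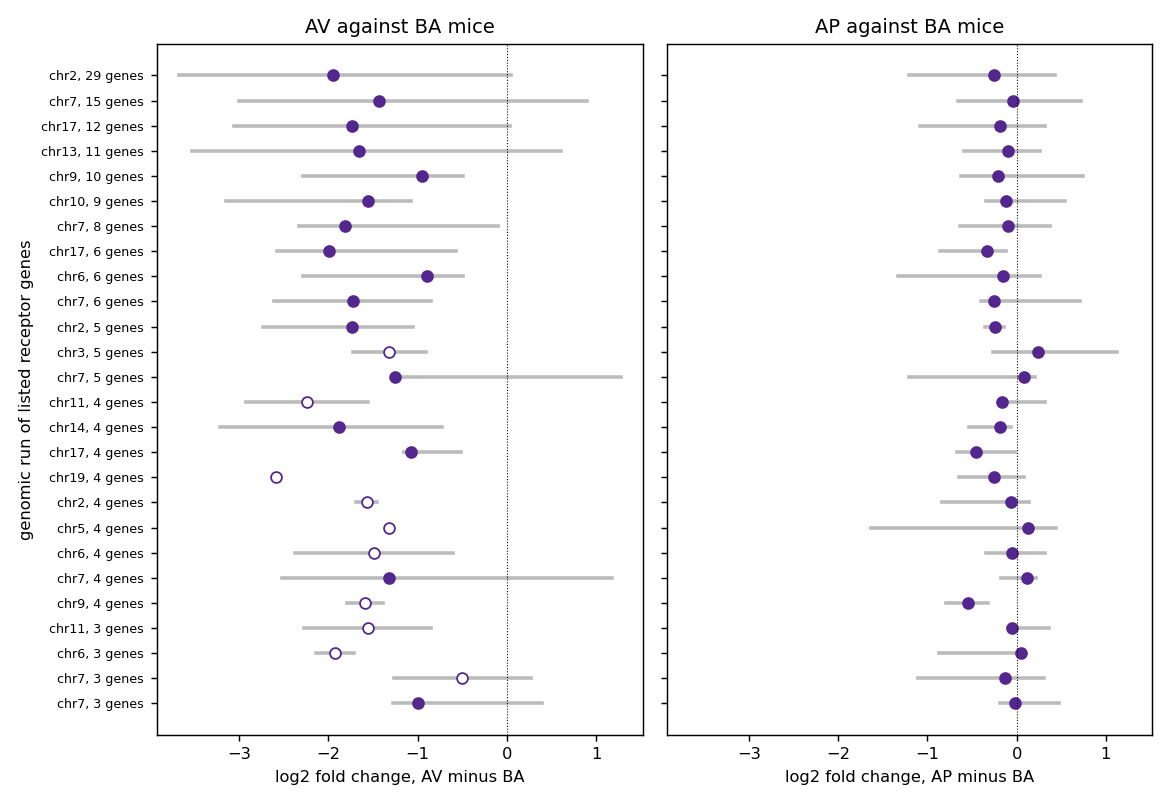
Log2 fold change (x axis) of each genomic run of listed receptor genes (y axis, by chromosome and number of genes), AV against BA mice on the left and AP against BA mice on the right. The point is the median of the run, open where fewer than 3 genes are in that table, and the grey line runs from its lowest to its highest gene. On the left all 16 filled points lie under 0, and on the right the medians lie between -0.54 and 0.25.

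The listed genes were compared with the receptor genes that neither table listed. The listed share was 8.74% of olfactory, 16.7% of Vmn1r and 33.9% of Vmn2r genes. Listed genes had more annotated exon sequence, with a median of 5813 bases against 2501 in those not listed, while the median coding length was 942 against 936 bases. Within classes the exon medians were 5114 against 2350 bases for olfactory, 6922 against 2543 for Vmn1r and 9549 against 4678 for Vmn2r genes. Most of the annotated length was therefore noncoding, and coding bases made up a median of 18.5% of the exon sequence of the receptor genes in the table of AV mice, against 32.4% of all its genes.

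The receptor genes are also poor in GC, with a median of 39.1% in the longest transcript against 48.8% of all genes in the table of AV mice. Their changes were set beside those of other genes of like GC content. In every band of GC content up to 50% the receptor genes had a median between -1.72 and -1.48, and the other genes one between -0.31 and -0.08. Of 863 other genes with a GC content up to the upper quartile of the receptor genes, 40.7%, 18.4% fell, with a median of -0.21. Of 187 other pseudogenes 34.8% fell, with a median of -0.55, and of 367 other genes with a single exon 18.5% fell, with a median of -0.12.

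**Figure D5:**
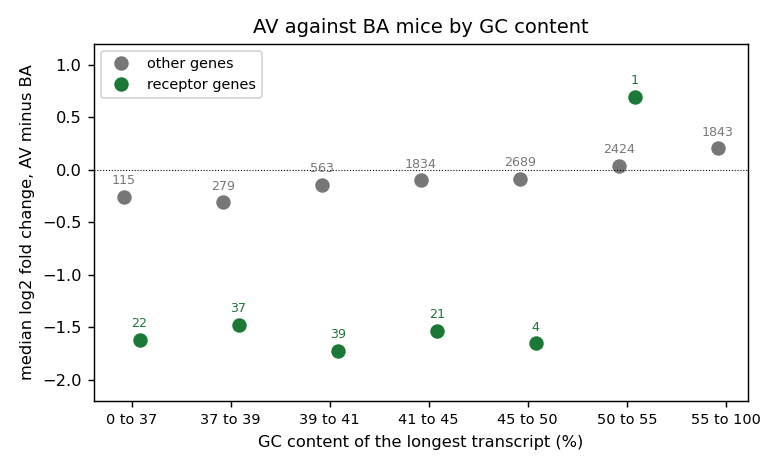
Median log2 fold change of AV against BA mice (y axis) by GC content of the longest transcript (x axis, percent) for receptor genes and for all other listed genes, with the number of genes at each point. The receptor genes lie under -1.4 in every band up to 50%, and the single receptor gene above 50% lies at 0.70.

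Reads of near copies cannot always be assigned to 1 gene, so the sequence that receptor genes share with other genes was counted as 31-base words of their transcripts. A median of 14.96% of the words of a receptor gene in the table of AV mice were found in transcripts of other genes, and 8.80% in genes outside the receptor families. For Vmn2r29 the share was 79.9%, for Vmn1r207-ps 58.2%, for Olfr46 45.7%, for Olfr1385 42.4% and for Olfr639 39.1%. The values of these genes are uncertain, but the shares do not measure by how much, and how reads were assigned was not tested. In Vmn1r207-ps the near copy is Vmn1r209, with 46.8% of the words. The 39 genes with under 10% shared words had 25 that fell and 1 that rose, with a median of -1.59, but for the vomeronasal genes alone among them the median was -0.91. Exons of 15 of the 124 genes overlapped those of another gene, among them Olfr639 with Olfr643 on the same strand and Vmn2r24 with Vmn2r25 on the other, and the 109 without overlap had a median of -1.61.

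The same BA mice stand in both tables, which allowed their levels to be compared between tables. Of 107 receptor genes in both, 29.0% had BA means that differed by over 1.5-fold, 11 higher and 20 lower in the table of AV mice, against 1.47% of all 9417 shared genes. The median ratio was 0.856 for receptor genes and 0.850 for all. Olfr374 had the highest ratio, 5.90, with 798, 620 and 888 in the BA mice of the table of AV mice and 128, 126 and 137 in the same mice of the other table. Olfr774 followed, with 646, 497 and 803 against 132, 94.3 and 190. The tables rest on different annotation releases, with another identifier version for 1 of these 107 genes and for 241 of the 9417, and the part of the releases in these levels was not tested. Between groups within a table, Olfr374 had 112 and 210 in the AV mice and 159, 103 and 112 in the AP mice. The 107 shared genes had a median log2 fold change of -1.71 in AV and -0.15 in AP mice, comparisons that share their BA mice.

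Of 66 genes of receptor signalling and receptor expression, 23 were listed in the table of AV mice, of which 8 rose and 4 fell, 4 of 23 against the 16.2% of all genes that fell and 8 of 23 against the 13.6% that rose. Omp, the olfactory marker protein of mature sensory neurons, fell, with 34.9, 41.7 and 50.5 in the BA mice and 6.22 and 6.16 in the AV mice. It lies in an intron of Capn5 on the same strand, and Capn5 itself did not pass (log2 fold change -0.50, adjusted p = 0.191). Trpc2, the cation channel of vomeronasal neurons, had 34.7, 30.05 and 29.7 against 4.52 and 7.57, and its exons overlap those of Xndc1 and Xntrpc. Also lower were Slc12a2, a chloride importer that glia and other cells use as well, with a log2 fold change of -1.94, and Pde1c, a phosphodiesterase, with -1.48.

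Among the genes that rose, several are also expressed by neurons outside the nose. Gnal, the olfactory G protein alpha subunit, which is also the main one of the striatum, had 39.3, 44.4 and 41.7 in the BA mice and 253 and 324 in the AV mice, a log2 fold change of 2.75. Kcnma1, a potassium channel of wide use in neurons, had one of 2.62, and Adcy3, the cyclase of olfactory transduction, one of 1.06. Reep1, Gnas, Atf5, Gnb1 and Arrb2 rose by 1.80, 1.48, 1.45, 1.13 and 1.07 on the log2 scale. Gnao1, the G protein of V2R neurons and a common one in brain, had the second highest BA mean of the list, 4818, and did not pass the test. In AP mice 27 genes of the list were in the table and 0 passed. None of the trace amine or formyl peptide receptor genes, the other chemoreceptor families of the nose, was listed in the table of AV mice.

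Markers of other cell types differed in AV mice as well, some lower and some higher. The summed level of the 7 oligodendrocyte markers was between 191674 and 235646 in the BA mice and was 54043 and 83465 in the AV mice, 5 of them fell, and their median was -1.80. All 3 listed microglia markers and 3 of 5 listed astrocyte markers rose, with sums of 237 to 354 and 9017 to 14623 in the BA mice against 722 to 939 and 29033 to 56395 in the AV mice. Of 3 listed endothelial markers 1 fell, Kdr, with a log2 fold change of -2.86, and their sums were 266 to 393 in the BA mice and 168 and 169 in the AV mice. Both listed pyramidal neuron markers rose as well. The part of these cells in the change of the receptor genes was not tested. In the table of AV mice, the oligodendrocyte sums of BA replicates 1 to 3 were 191674, 235646 and 191868. Their receptor shares were 0.811%, 0.597% and 0.922%. AV replicates 1 and 3, with sums of 54043 and 83465, had shares of 0.406% and 0.291%. In the other table the sums were 224702, 286692 and 233514 in the BA mice and 227947, 280053 and 247643 in the AP mice. The shares there were 0.672%, 0.512% and 0.881% in the BA mice and 0.831%, 0.454% and 0.682% in the AP mice. Microglia markers were higher in AP mice too, with sums of 1451 to 2917 in the BA mice and 3912 to 6839 in the AP mice. All 10 had an unadjusted p under 0.05 in limma, and 0 were called. Astrocyte sums overlapped there, with 11375.5 to 16502.7 in the BA mice and 9183.2 to 50027.9 in the AP mice.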

How the data were processed

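Per the labels and the methods of the study, YFP-positive cells were sorted from amygdala punches and sequenced as stranded paired-end libraries. The authors deposited a normalized signal per gene and mouse, made by removing genes with low counts, scaling by TMM and applying ARSyN, a correction for unwanted variation. The submitters' processing notes name bcl2fastq 2.20, Salmon 1.2 and GRCm38.p6, with no role given. Most low values are whole multiples of 1 read above an offset of 2 in the BA vs AP table alone, and precision from depth is given there as the level of 3 reads, which covers counting error only. No source says whether ARSyN was applied to both tables.

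The fit was made in each table on its own, over all its genes and with no covariate, by limma (version 3.58.1, R 4.3.3) of the values as log2(value + 1), with Benjamini-Hochberg adjustment. NOISeq, the test of the study, was not run. Per the methods of the study no mice of a group were siblings, and p values measure the spread between single mice. Symbols were matched for 9871 of 9872 and 11778 of 11820 genes, and exon length, GC content of the longest transcript, overlaps and shared words of 31 bases came from GENCODE M21. Promoter windows are from RefSeq, protein sequences were not used here, and some sequences are not reported here. Named genes were, for each table, up to 10 called genes with the smallest p, the 5 with the highest lowest value, the 3 with the largest and the 3 with the smallest log2 fold change, the 2 outermost vomeronasal genes in each direction, and the called or highest genes of the signalling list. Olfr374, Olfr774, Olfr986 and Olfr1220 were named after their values were seen. Receptor genes, lists and markers were chosen with earlier results of these data known. Alternatives covered the pseudocount, filters, centring, the variance prior, the threshold, the replicate number as a block, overlaps, pseudogenes and each mouse left out; removal of the GC trend and a limit on shared words were added after seeing the data. The fit was tested on simulated data. Computations used Python 3.11.15, numpy 2.4.6 and pandas 2.3.3, and figures matplotlib 3.10.9.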

Additional observations from a re-analysis of the deposited data

How the results depend on the processing

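For AV against BA, the count of 86 called receptor genes stayed between 75 and 89 with other pseudocounts, filters, centring, a variance prior that follows the mean, removal of the GC trend, and without overlapping genes or pseudogenes. It ranged from 61 to 108 with 1 mouse left out, was 55 at an adjusted p under 0.01, and was 26 among the 39 genes with under 10% of shared words, a smaller set. With 1 AV mouse left out, the remaining one is assumed to vary like the BA mice. The median of the olfactory genes was -1.34 with the GC trend removed, and ranged from -1.81 to -1.54 with 1 mouse left out. The median of the vomeronasal genes was -1.37 with the GC trend removed, -1.40 with a pseudocount of 4 and -0.91 among genes with under 10% of shared words, and ranged from -1.65 to -1.44 with 1 mouse left out. The cause was not tested. For AP against BA, 0 genes were called under every alternative run, and the medians ranged from -0.40 to 0.01 for olfactory and from -0.35 to 0.12 for vomeronasal genes with 1 mouse left out.

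Of 246 comparisons of 19 named genes in AV mice 234 kept direction and side of the threshold, and of 152 of 11 genes in AP mice 145 did. With 1 mouse left out, log2 fold changes in AV mice ran from -0.43 (without AV replicate 1) to 1.21 (without AV replicate 3) for Olfr46 and from -0.31 to 2.11, without the same mice, for Olfr671. In AP mice they ran from -0.33 to 0.16 for Vmn2r53, from -0.35 to 0.10 for Olfr1307, from -0.27 to 0.096 for Olfr1385 and from -0.375 to 0.0875 for Olfr639, with the highest value without AP replicate 2 in each, and the sign turned without BA replicate 3 too in Vmn2r53, Olfr1307 and Olfr1385.

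Replicate numbers were tried as a block, although nothing says that they pair mice: deviations of same-numbered mice correlated over all genes with r between -0.06 and 0.12, and over the receptor genes with r of 0.12, 0.16 and 0.26 in the 3 AP pairs and -0.10 and -0.22 in the AV pairs. With the replicate block 60 receptor genes were called in AV and 0 in AP mice, and among the named genes Olfr639 (adjusted p = 0.0532) and Vmn2r66 (adjusted p = 0.0964) did not pass. Depth is unknown for the table of AV mice, so genes near the level of 3 reads there have no interval.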
